A study of Homo sapiens with 6 samples.

Results

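The 39 genes described here encode proteins that license replication origins and run the DNA replication fork. They were taken by symbol from the table of NAT10 RNA immunoprecipitation sequencing (RIP-seq), where each symbol had 1 row among 58302 genes. All 39 had an Input of at least 1 FPKM (fragments scaled by transcript length and library size) in both cell lines, as had 12324 genes in all. The libraries came from SW480 and DLD-1, both established human colorectal cancer (CRC) cell lines, given as wild-type and untreated in the labels. Each line had 1 Input library of total RNA, 1 RIP library of RNA precipitated with NAT10, and 1 library of RNA precipitated for N4-acetylcytidine (ac4C; acRIP-seq), so 6 libraries made 6 groups. With 1 library per group no difference was tested, and each value compares libraries, not conditions.

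Before S phase, the origin recognition complex (ORC), CDC6 and CDT1 load the MCM2-7 helicase onto DNA, and geminin holds CDT1 in check. CDC45, the GINS complex, MCM10 and TOPBP1 then help to turn the loaded helicase into a moving fork. There, polymerase alpha-primase lays primers, replication factor C (RFC) loads the sliding clamp PCNA, RPA covers single-stranded DNA, and FEN1 and LIG1 finish the lagging strand. Transcription of many of these genes is driven by E2F factors as cells enter S phase, and dividing tumour cells are known to express them. NAT10 is an acetyltransferase that places ac4C on RNA.

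The reads behind the FPKM values could be solved as whole numbers and came to between 12125181 and 27388958 per library, with the RIP libraries deeper than the Inputs. The 39 genes had between 67 reads (CDC45 and GINS2 in the Input labelled DLD-1) and 5328 reads (MCM7 in the RIP library labelled SW480). Errors given below as ± are counting standard errors (SE) on the log2 scale, and they cover counting error only. In RefSeq, 9 of the 39 genes overlap another protein-coding gene (GINS2, MCM7, ORC1, ORC3, ORC4, PRIM2, RFC5, RPA3 and TOPBP1). Whether counting used strand is not given in the sources used here, so reads of these genes and their partners may not have been told apart.

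The labels of the RIP and Input libraries did not pair. VIM and ZEB1, mesenchymal genes known of SW480, stood at 128 and 5.27 FPKM in the RIP library labelled SW480 but at 0.077 and 0.076 in the Input labelled SW480. The Input labelled DLD-1 held 11.1 and 5.13, against 0.804 and 0.108 in RIP labelled DLD-1. The intestinal genes CDH17 and CDX2 had the reverse order, with 38.7 and 33.4 FPKM in the Input labelled SW480 and 61.7 and 28.3 in RIP labelled DLD-1. In the other 2 libraries they were at most 2.54 and 7.0. Of the other epithelial markers, CDH1, EPCAM, KRT8, KRT18 and KRT19 were also highest in that Input and that RIP library. LGALS4 was not, with 4.78 FPKM in the Input labelled DLD-1 and 3.78 in RIP labelled SW480, against 0.936 and 2.15 in Input labelled SW480 and RIP labelled DLD-1. VIL1 was highest in both libraries labelled SW480 (1.24 in RIP and 1.13 in Input), and CDX1 was above 0 only in the Input labelled SW480 (0.623). Across the 39 genes, Pearson's r of the log2(FPKM + 1) levels in RIP labelled SW480 was 0.899 with the Input labelled DLD-1 and 0.538 with the Input of its own label. RIP labelled DLD-1 had 0.815 with the Input of its own label and 0.778 with the opposite one. Over 16196 protein-coding genes both RIP libraries had the higher r with the opposite label, 0.944 against 0.871 for RIP labelled SW480 and 0.951 against 0.856 for RIP labelled DLD-1. These correlations are a description over genes that share libraries. Libraries are therefore named by their label, and the main RIP values are given as labelled and also over the Input that carries the opposite label, called the crossed Input.

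Levels were examined first. All 39 genes were above 0 in every RIP and Input library, with medians of 12.9 FPKM in RIP and 15.5 in Input labelled SW480, and of 15.3 and 10.3 in those labelled DLD-1. PCNA, the sliding clamp, was the highest in 3 of these 4 libraries, at 75.7, 76.3 and 113 FPKM, and stood at 51.6 in the Input labelled DLD-1. There MCM7, a subunit of the MCM2-7 ring, was the highest, at 73.4 FPKM. The lowest were GINS subunits: GINS4 in RIP labelled SW480 (2.34 FPKM), GINS3 in RIP labelled DLD-1 (5.68) and GINS2 in both Inputs (2.92 and 1.86).

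The 2 libraries that held a gene's highest levels were often the same pair. For 18 of the 39 genes (46.2%) they were the Input labelled SW480 and the RIP library labelled DLD-1, against 18.1% of all genes tested. These 18 were CDC6, CDT1, CDC45, CLSPN, GINS1, GINS3, GINS4, LIG1, MCM2, MCM3, MCM4, MCM5, MCM10, ORC1, ORC6, PCNA, TIMELESS and TOPBP1. Both RIP libraries were the highest for 12 genes (30.8%), among them 5 of the 5 RFC subunits and both primase subunits, against 26.6% of all genes. The RIP library and the Input that share the label SW480 were the highest pair for 3 genes, and those that share the label DLD-1 for 0, against 3.43% and 3.04% of all genes.

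**Figure D1:**
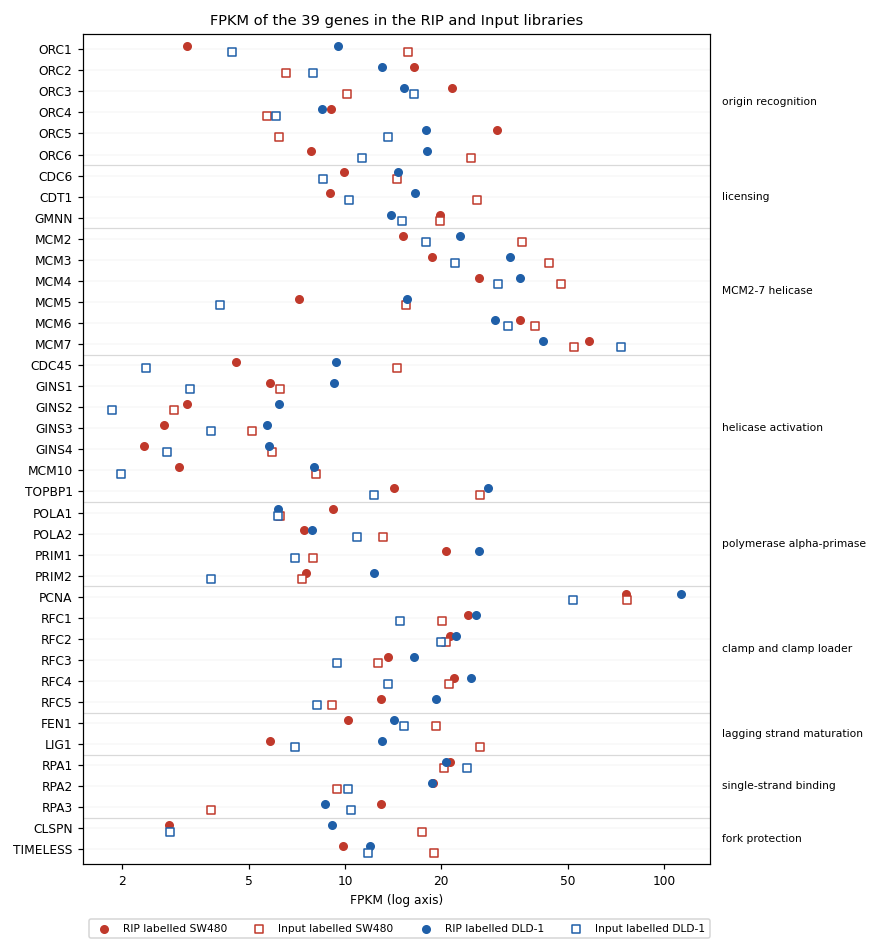
FPKM (log axis) of each of the 39 genes in the RIP libraries (filled circles) and Inputs (open squares), red for the label SW480 and blue for DLD-1, with genes grouped by role. For CDC45, CLSPN, LIG1, MCM2, MCM5 and ORC1, the open red and the filled blue symbols lie to the right of the other 2.

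Whether the transcripts differed between the lines before precipitation was read from the Inputs. On the scale log2((FPKM + 1)/(FPKM + 1)), 31 of the 39 genes were higher under the label SW480 than under DLD-1 and 8 were lower, with a median of 0.46. Over all genes tested the median was -0.027, and over 9283 protein-coding genes whose Input labelled DLD-1 lay between the lowest and the highest of the 39 it was -0.058. At least 2-fold higher were 9 of the 39 genes (23.1%), against 7.25% of all genes tested, and at least 2-fold lower were 2 (5.13%), against 9.29%. The 9 were CLSPN, an adaptor of the replication checkpoint, CDC45, LIG1, the ligase of the lagging strand, MCM5, ORC1, MCM10, CDT1, ORC6 and TOPBP1. The 2 were ORC5 and RPA3, the smallest RPA subunit.

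CLSPN had the largest of these differences, with 17.4 FPKM under the label SW480 and 2.83 under DLD-1 (2.27 ± 0.088 on the log2 scale). CDC45 stood at 14.5 and 2.37 FPKM (2.20 ± 0.14), on 444 and 67 reads. LIG1 had 26.5 and 6.95 FPKM (1.79 ± 0.073). At the other end, RPA3 had 3.79 and 10.4 FPKM (-1.25 ± 0.13) and ORC5 had 6.23 and 13.7 (-1.02 ± 0.11). The 6 MCM2-7 subunits were not alike: MCM5 differed by 1.71 ± 0.084, MCM2 and MCM3 by 0.96 ± 0.056 and 0.95 ± 0.054, MCM4 by 0.64 ± 0.043 and MCM6 by 0.27 ± 0.046, whereas MCM7 was at -0.48 ± 0.039.

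A second table gave Input values of the same samples beside the acRIP-seq data, in a unit that was not named and is read here as FPKM. There, 29 of the 39 genes were higher under the label SW480 as in the first table, 5 were lower in both (MCM7, ORC3, ORC5, RPA1 and RPA3), and the median was 0.51, against 0.016 over all genes tested. CDC45, CLSPN, LIG1, MCM5, MCM10 and TOPBP1 were at least 2-fold higher in both tables. ORC1 was at 0.80 in the second table and 1.62 ± 0.099 in the first, and GINS3 had opposite signs, at -0.38 and 0.35 ± 0.12. Across the 39 genes the differences in the tables had a Pearson r of 0.913, a description, since both tables were made from the same samples.

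**Figure D2:**
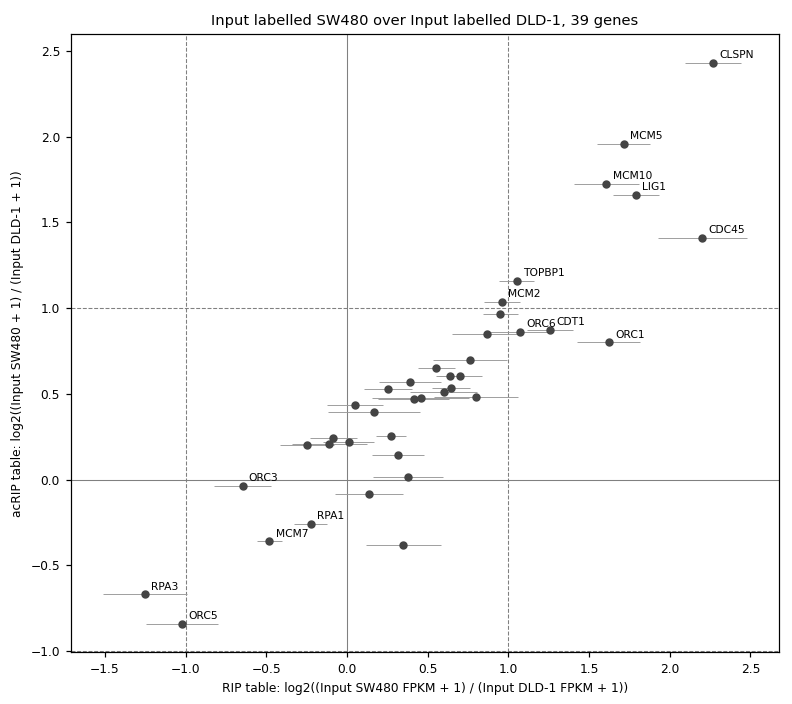
Each point is 1 of the 39 genes: the log2 difference between the Inputs labelled SW480 and DLD-1 in the RIP table (horizontal axis, bars are 95% counting intervals) and in the acRIP table (vertical axis). CLSPN lies at the upper right with 2.27 and 2.43, and ORC5 and RPA3 at the lower left.

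The promoters of these genes were also read for E2F-type letters. RefSeq promoters (GRCh38.p14) matched 34 of the 39 genes, with 42 promoters. CDT1, GINS2, GMNN, LIG1, MCM3, MCM6, MCM7, ORC3, PCNA, POLA1, POLA2 and RFC3 held TTTCCCGC, TTTCGCGC, TTTGCCGC or TTTGGCGC on either strand in the 250 bases before the start. That was 12 of the 42 promoters (28.6%), against 2.79% of 35116 promoters of the same length, with overlapping matches counted as 1 promoter. Shown are the windows of the genes called in RIP over Input below, read 5′ to 3′ in the direction of the gene, with the matched letters in capitals and up to 11 bases on each side.
CDT1, chr16:88803743-88803772, plus strand: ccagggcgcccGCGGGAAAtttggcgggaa
GINS2, chr16:85688967-85688996, minus strand: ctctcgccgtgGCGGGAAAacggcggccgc
LIG1, chr19:48170440-48170469, minus strand: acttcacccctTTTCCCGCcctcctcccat
MCM3, chr6:52284898-52284927, minus strand: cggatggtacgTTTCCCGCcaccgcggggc
ORC3, chr6:87590112-87590134, plus strand: cgcgagggcgcGCGGGAAAtccc
PCNA, chr20:5126663-5126692, minus strand: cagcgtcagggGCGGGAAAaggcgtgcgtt
All 6 windows hold the same 8 letters, in LIG1 and MCM3 on the gene's own strand and in the other 4 on the opposite strand. The median Input difference was 0.39 in the 12 genes that hold the letters, of which 2 were at least 2-fold higher in the Input labelled SW480. It was 0.62 in the 22 matched genes without the letters, of which 6 were. The 5 genes without a matched promoter are in neither set. ORC3, whose promoter holds the letters, was lower in the Input labelled SW480 (-0.65 ± 0.089). A match is no evidence of binding, and the part of E2F factors in the Input differences was not tested.

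RIP was then set over Input, as log2((RIP FPKM + 1)/(Input FPKM + 1)), and a gene was called at a 2-fold difference. In libraries labelled SW480, 5 of the 39 genes (12.8%) were called higher in RIP, against 15.6% of all genes tested, and 11 (28.2%) lower, against 16.0%. In libraries labelled DLD-1, 11 (28.2%) were called higher, against 15.1%, and 0 lower, against 19.2%. The medians were -0.090 and 0.66. Protein-coding genes of like Input had medians of 0.14 (8406 genes with an Input between 2.92 and 76.3 FPKM) and 0.053 (9283 genes, between 1.86 and 73.4 FPKM). In all, 22 genes were called in at least 1 labelled pair. CDC45, CLSPN, MCM5 and MCM10 were called lower with the labels SW480 and higher with the labels DLD-1. The shares of all genes tested with a call in at least 1 pair, or with opposite calls, were not counted, so neither count is read as unusual.

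With crossed Inputs the calls were fewer. The RIP library labelled SW480 had 2 genes at least 2-fold higher (ORC5 and PRIM1; 5.13%), against 9.24% of all genes, and 0 lower, against 11.7%. The RIP library labelled DLD-1 had 4 higher (ORC5, PRIM1, RFC5 and RPA3; 10.3%), against 9.36%, and 0 lower, against 11.8%. The medians were 0.29 and 0.019, beside 0.12 and 0.081 in genes of like Input. Counting 95% intervals that exclude 0, 26 of the 39 genes had the same sign in both RIP libraries there (15 above and 11 below Input) and 3 had opposite signs. With the labelled pairs, 9 had the same sign and 17 opposite signs. Such signs were not counted over all genes tested, so these counts are not read as a trait of the 39 genes.

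Without any Input, the RIP library labelled SW480 stood at least 2-fold below that labelled DLD-1 for 7 of the 39 genes (17.9%), against 6.17% of all genes tested, and at least 2-fold above it for 0, against 7.6%. The 7 were CLSPN, GINS4, LIG1, MCM5, MCM10, ORC1 and ORC6.

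**Figure D3:**
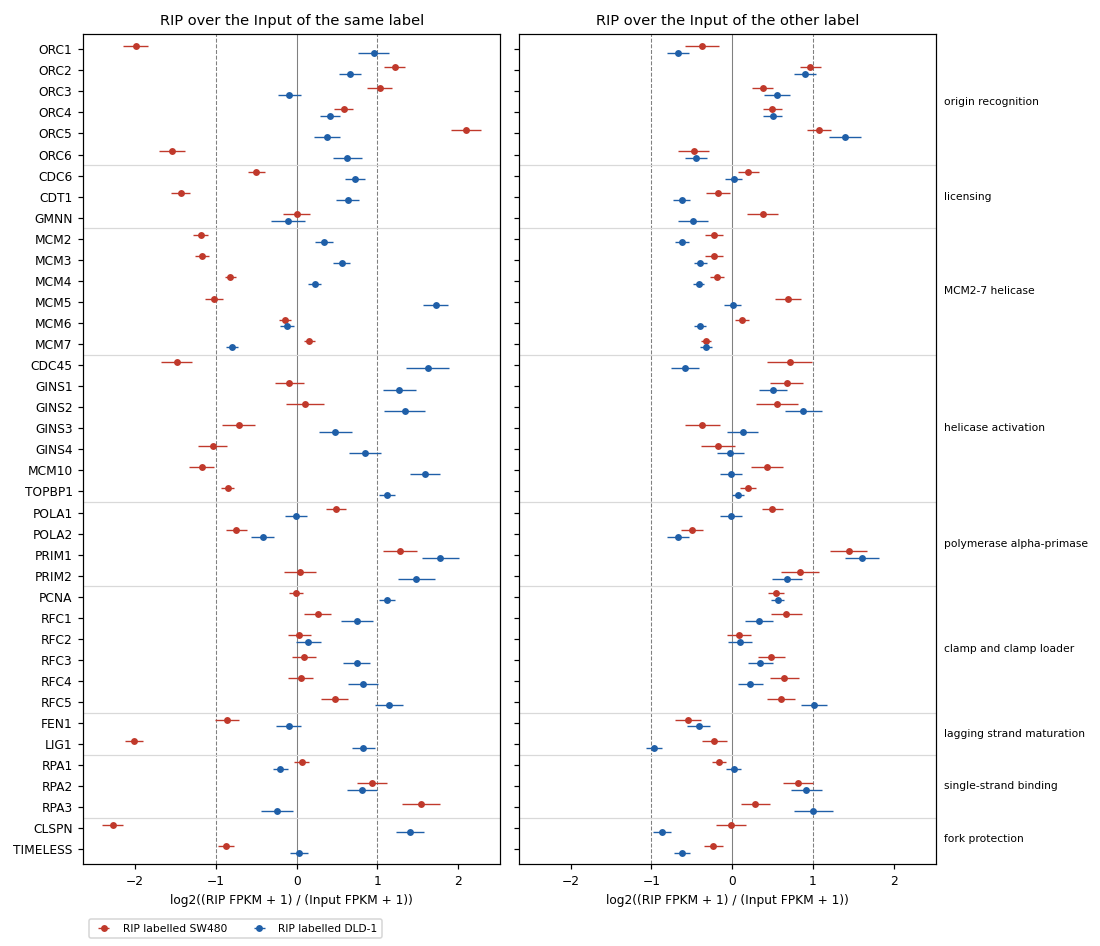
log2((RIP FPKM + 1)/(Input FPKM + 1)) of the 39 genes as labelled (left) and over the crossed Input (right), red for the RIP library labelled SW480 and blue for that labelled DLD-1, with 95% counting intervals and dashed lines at 2-fold. On the left red and blue lie on opposite sides of 0 for 17 genes beyond counting error, and on the right for 3.

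Among the ORC subunits, which together bind origins, the labelled pairs split ORC1 and ORC6 from the others. ORC1 had 3.20 FPKM in RIP and 15.7 in Input labelled SW480, and 9.52 and 4.43 in those labelled DLD-1. ORC6 had 7.84, 24.9, 18.0 and 11.3 FPKM in the same order. Both were lower in RIP with the labels SW480 (-2.00 ± 0.081 and -1.55 ± 0.082) and higher with the labels DLD-1 (0.95 ± 0.098 and 0.63 ± 0.092). Over the crossed Input, both lay below Input in both RIP libraries, at -0.37 ± 0.11 and -0.67 ± 0.069 for ORC1 and at -0.48 ± 0.10 and -0.45 ± 0.072 for ORC6.

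ORC2 to ORC5 lay above Input in both RIP libraries over the crossed Input. ORC5 had 29.9 FPKM in RIP and 6.23 in Input labelled SW480, and 18.0 and 13.7 in those labelled DLD-1. Its log2 ratios were 2.1 ± 0.097 and 0.37 ± 0.083 as labelled and 1.07 ± 0.077 and 1.39 ± 0.10 crossed, so both RIP libraries exceeded both Inputs. ORC2 had 16.5 and 6.54 FPKM with the labels SW480 and 13.1 and 7.94 with DLD-1, and its RIP libraries likewise exceeded both Inputs (1.21 ± 0.068 and 0.66 ± 0.069 as labelled, 0.97 ± 0.067 and 0.90 ± 0.071 crossed). ORC3, with 21.7, 10.1, 15.3 and 16.4 FPKM, overlapped, since its RIP library labelled DLD-1 lay just under the Input of that label (-0.092 ± 0.072, within counting error of 0). ORC4 was called nowhere, with ratios between 0.42 ± 0.063 and 0.58 ± 0.060.

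Of the licensing factors only CDT1, the MCM2-7 loader that geminin binds, was called. It had 8.97 FPKM in RIP and 26.0 in Input labelled SW480, and 16.5 and 10.3 in those labelled DLD-1. These gave -1.44 ± 0.059 and 0.63 ± 0.072 as labelled, and -0.18 ± 0.076 and -0.62 ± 0.054 over the crossed Input. CDC6, the ATPase that brings CDT1 and MCM2-7 to ORC, followed the same order at a smaller size (-0.50 ± 0.055 and 0.72 ± 0.064 as labelled). GMNN, which encodes geminin, was within counting error of 0 in both labelled pairs, but had opposite signs crossed (0.38 ± 0.098 and -0.48 ± 0.096).

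The MCM2-7 subunits, which form 1 ring in equal parts, did not share 1 pattern in RIP. MCM5 had 7.15 FPKM in RIP and 15.5 in Input labelled SW480, and 15.6 and 4.04 in those labelled DLD-1. MCM2 stood at 15.2, 35.8, 22.9 and 17.9 FPKM in this order, and MCM3 at 18.8, 43.6, 32.9 and 22.1. In all 3 the Input labelled SW480 lay far above the RIP library of that label, and the RIP library labelled DLD-1 above the Input of that label. The labelled ratios were -1.02 ± 0.058 and 1.72 ± 0.080 for MCM5, -1.19 ± 0.047 and 0.34 ± 0.055 for MCM2, and -1.17 ± 0.045 and 0.56 ± 0.052 for MCM3. MCM7 had the opposite order (0.15 ± 0.035 and -0.80 ± 0.036), and MCM6 was below Input in both (-0.15 ± 0.038 and -0.13 ± 0.044) but had opposite signs crossed (0.12 ± 0.041 and -0.40 ± 0.040). MCM4, with -0.82 ± 0.036 and 0.22 ± 0.041, was not called. Over the crossed Input MCM2, MCM3, MCM4 and MCM7 were below Input in both RIP libraries, at between -0.62 and -0.19, and MCM5 was above it in 1 (0.69 ± 0.084) and within counting error of 0 in the other (0.0069 ± 0.053).

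Helicase activation genes were above Input in RIP labelled DLD-1 in 7 of 7 cases, with a median of 1.27, and below it in 6 of 7 with the labels SW480, with a median of -0.85. CDC45, a subunit of the active helicase, had 4.54 FPKM in RIP and 14.5 in Input labelled SW480, and 9.38 and 2.37 in those labelled DLD-1, which gave -1.49 ± 0.095 and 1.62 ± 0.14. Over the crossed Input it kept opposite signs, now with RIP labelled SW480 above Input (0.71 ± 0.14) and RIP labelled DLD-1 below it (-0.58 ± 0.087). MCM10, which binds the fork helicase, had 3.02, 8.10, 7.99 and 1.99 FPKM. Its labelled ratios of -1.18 ± 0.077 and 1.59 ± 0.096 became 0.43 ± 0.10 and -0.018 ± 0.069 crossed, the latter within counting error of 0.

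The GINS subunits form a complex of equal parts but were unequal in RIP. GINS1 had 5.80 FPKM in RIP and 6.23 in Input labelled SW480, and 9.26 and 3.26 in those labelled DLD-1. GINS2 had 3.21, 2.92, 6.21 and 1.86 FPKM. For both, RIP labelled SW480 equalled the Input of that label within counting error (-0.090 ± 0.089 and 0.10 ± 0.12), and RIP labelled DLD-1 exceeded its Input (1.27 ± 0.10 and 1.34 ± 0.13). Over the crossed Input GINS1 and GINS2 were above Input in both RIP libraries (0.67 ± 0.11 and 0.50 ± 0.086, 0.56 ± 0.13 and 0.88 ± 0.12). GINS4, at 2.34, 5.88, 5.78 and 2.77 FPKM, was called lower with the labels SW480 (-1.04 ± 0.091) and lay within counting error of 0 with crossed Inputs (-0.17 ± 0.11 and -0.021 ± 0.085). GINS3 was not called (-0.72 ± 0.10 and 0.48 ± 0.11 as labelled). TOPBP1, a scaffold needed for origin firing and checkpoint signalling, had 14.2 and 26.5 FPKM with the labels SW480 and 28.0 and 12.3 with DLD-1, and was called higher only in the latter pair (1.12 ± 0.050).

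Of the 39 genes, PRIM1 alone was called higher in each of the 4 pairings of a RIP library with an Input of the same table. PRIM1, the catalytic subunit that makes the RNA primer, had 20.7 FPKM in RIP and 7.92 in Input labelled SW480, and 26.3 and 6.96 in those labelled DLD-1. Both RIP libraries lay above both Inputs with no overlap, on 893 and 966 RIP reads and 169 and 137 Input reads. The ratios were 1.28 ± 0.11 and 1.78 ± 0.12 as labelled and 1.44 ± 0.12 and 1.61 ± 0.11 crossed. In the second table, however, the PRIM1 Inputs were listed at 11.4 (label SW480) and 8.42 (label DLD-1). For ratios over them, each was first scaled to the median of the first table's Input of its label, over the genes tested. After this scaling no call was left, with 0.28 as labelled and 0.65 crossed for RIP labelled SW480, and 0.98 and 0.62 for RIP labelled DLD-1. The listed Inputs as they stand would give larger ratios, some past 2-fold. PRIM2, the regulatory subunit, had 7.56, 7.32, 12.4 and 3.79 FPKM and was called with the labels DLD-1 alone (0.041 ± 0.098 and 1.48 ± 0.12). The polymerase subunits of the same complex differed from them: POLA2 was below Input in all 4 pairings, between -0.75 ± 0.067 and -0.42 ± 0.073, and POLA1 above Input only in RIP labelled SW480 (0.49 ± 0.065 as labelled and 0.50 ± 0.067 crossed).

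The clamp and its loader lay above the crossed Inputs in 6 of 6 genes in both RIP libraries, with medians of 0.57 and 0.34, although RFC2 was within counting error of 0. PCNA, with the levels given above, was at -0.011 ± 0.045 and 1.12 ± 0.051 as labelled and at 0.54 ± 0.053 and 0.56 ± 0.043 crossed. RFC5, a small subunit of the loader, had 13.0 FPKM in RIP and 9.08 in Input labelled SW480, and 19.3 and 8.17 in those labelled DLD-1. Its RIP libraries exceeded both Inputs, by 0.47 ± 0.084 and 1.15 ± 0.088 as labelled. The other RFC genes were not called, with labelled ratios between 0.033 (RFC2) and 0.82 (RFC4).

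On the lagging strand, LIG1 had 5.81 FPKM in RIP and 26.5 in Input labelled SW480, and 13.1 and 6.95 in those labelled DLD-1. It was lower with the labels SW480 (-2.01 ± 0.058) and higher with the labels DLD-1 (0.83 ± 0.074), and below Input in both RIP libraries crossed (-0.22 ± 0.079 and -0.96 ± 0.050). FEN1, the flap endonuclease, was below Input in all 4 pairings, between -0.86 and -0.10, the latter within counting error of 0.

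RPA3 had the reverse order of signs as labelled. It stood at 12.9 FPKM in RIP and 3.79 in Input labelled SW480, and 8.63 and 10.4 in those labelled DLD-1, with ratios of 1.54 ± 0.12 and -0.25 ± 0.10 as labelled and of 0.29 ± 0.092 and 1.01 ± 0.12 crossed. RPA2, the middle subunit, was above Input by 0.81 to 0.93 in all 4 pairings and just under the 2-fold call. RPA1, the large DNA-binding subunit, had nearly equal levels in the libraries, at 21.4, 20.4, 20.7 and 24.03 FPKM, and ratios between -0.20 and 0.063. The 3 RPA proteins work as 1 trimer.

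Of the fork protection genes, CLSPN had 2.80 FPKM in RIP and 17.4 in Input labelled SW480, and 9.08 and 2.83 in those labelled DLD-1. Its labelled ratios of -2.28 ± 0.066 and 1.40 ± 0.088 were the farthest apart of the 39 genes. Crossed they were -0.0093 ± 0.095 and -0.87 ± 0.055. TIMELESS, its partner at the fork, was lower with the labels SW480 (-0.88 ± 0.050) and within counting error of 0 with the labels DLD-1 (0.025 ± 0.058), and was called in neither.

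To place these genes in their pathway, 41 other replication genes were read in the same way, such as replicative polymerases, nucleotide supply enzymes and S phase drivers. Of the 41, 8 were called higher and 12 lower in RIP with the labels SW480, against 15.6% and 16.0% of all genes tested. With the labels DLD-1, 14 were higher and 1 lower, against 15.1% and 19.2%. With crossed Inputs 7 were higher and 3 lower in RIP labelled SW480, against 9.24% and 11.7% of all genes. In RIP labelled DLD-1, 5 were higher and 3 lower, against 9.36% and 11.8%. Their Inputs were at least 2-fold higher under the label SW480 for 13 and lower for 1, against 7.25% and 9.29%.
Those with the largest absolute mean ratio of the labelled pairs were TYMS, CDK2, POLE4, E2F1, CHTF18 and DUT. TYMS, which makes thymidylate, had 43.3 FPKM in RIP and 14.5 in Input labelled SW480, and 73.4 and 6.82 in those labelled DLD-1. In the second table its Inputs were listed at 64.7 (label SW480) and 31.1 (label DLD-1). CDK2, the S phase kinase, had 16.0 and 6.08 FPKM with the labels SW480 and 25.05 and 3.71 with DLD-1. E2F1 was below Input in both labelled pairs, at -1.67 and -1.03, as was CHTF18, part of an alternative clamp loader, at -2.29 and -0.31. POLE4, a small polymerase epsilon subunit, and DUT, the dUTPase, were above Input in both, at 2.14 and 0.72 and at 1.01 and 1.34. The transcript of NAT10 itself stood at 20.8 FPKM in RIP and 21.2 in Input labelled SW480, and at 14.3 and 23.0 in those labelled DLD-1.

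ac4C was read from the peaks that the authors called in each acRIP library. Which Input library each list was called against is not given in the sources used here. At least 1 peak was listed on 30 of the 39 genes in SW480 (76.9%), against 44.2% of all genes tested and 53.9% of genes of like Input. In DLD-1 it was 35 (89.7%), against 48.8% and 57.7%, and in both lines 27 (69.2%), against 34.4% of all genes. Of the 41 other replication genes, 25 had a peak in SW480 (61.0%) and 31 in DLD-1 (75.6%). LIG1, ORC4 and ORC5 had peaks in SW480 only. CLSPN, GINS3, MCM10, ORC1, ORC3, ORC6, RFC4 and TIMELESS had them in DLD-1 only, and RPA3 in neither. The 8 genes with peaks in DLD-1 only had a median Input of 16.6 FPKM under the label SW480, and of 7.88 under DLD-1, whereas their median RIP level had the opposite order, 5.52 and 10.8 FPKM. Since labels of these libraries did not pair, these levels alone do not tell which order belongs to the peak lists. VIM had a peak in SW480 only (fold 9.37), and ZEB1, CDH17 and CDX2 had none in either list. The epithelial genes CDH1 and EPCAM had peaks in DLD-1 only (top folds 66.9 and 19.3), and KRT8, KRT18 and KRT19 had them in both. Which RIP or Input label the peak lists go with was not tested. With 1 list per line these are listed and not listed peaks, and a gene under the calling threshold may still carry ac4C. Peaks on 3 of 6 fibroblast marker genes were also listed in SW480 (COL1A1, COL1A2 and DCN, with a top fold of 61.4) and on 0 of 6 in DLD-1, although these 3 genes were at 0.381 FPKM or less in every RIP and Input library, the 6 markers summed to between 0.401 and 2.21 FPKM there, and LUM was at 0 in each. Their part in the SW480 list was not tested.

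The 39 genes carried 50 peaks over 14913 bases in SW480 and 82 peaks over 32642 bases in DLD-1. More peaks were listed in DLD-1 for 24 genes, more in SW480 for 8 and the same number for 6. The DLD-1 list was the longer over all protein-coding hosts as well, with 13336 peaks against 8924 in SW480. Per host gene these were 2.02 and 1.47 peaks, beside 2.34 and 1.67 on the hosts among the 39 genes. Most peaks in SW480 lay in 3′-UTRs by the authors' annotation, 58.0% (29 of 50; 95% Wilson interval 44.2 to 70.6), and 32.0% (20.8 to 45.8) in coding sequence (CDS). In DLD-1 coding sequence led, with 54.9% (45 of 82; 44.1 to 65.2), and 3′-UTRs held 32.9% (23.7 to 43.7). All peaks on protein-coding hosts differed between the lists in the same direction, with 56.3% in SW480 and 43.2% in DLD-1 in 3′-UTRs and 25.8% and 40.0% in CDS. Peaks joined over more than 1 exon block made up 40.0% of the peaks in SW480 and 67.1% in DLD-1, beside 28.2% and 41.7% of all peaks on protein-coding hosts. Peaks of 1 gene share its reads, so these intervals cover counting only.

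**Figure D4:**
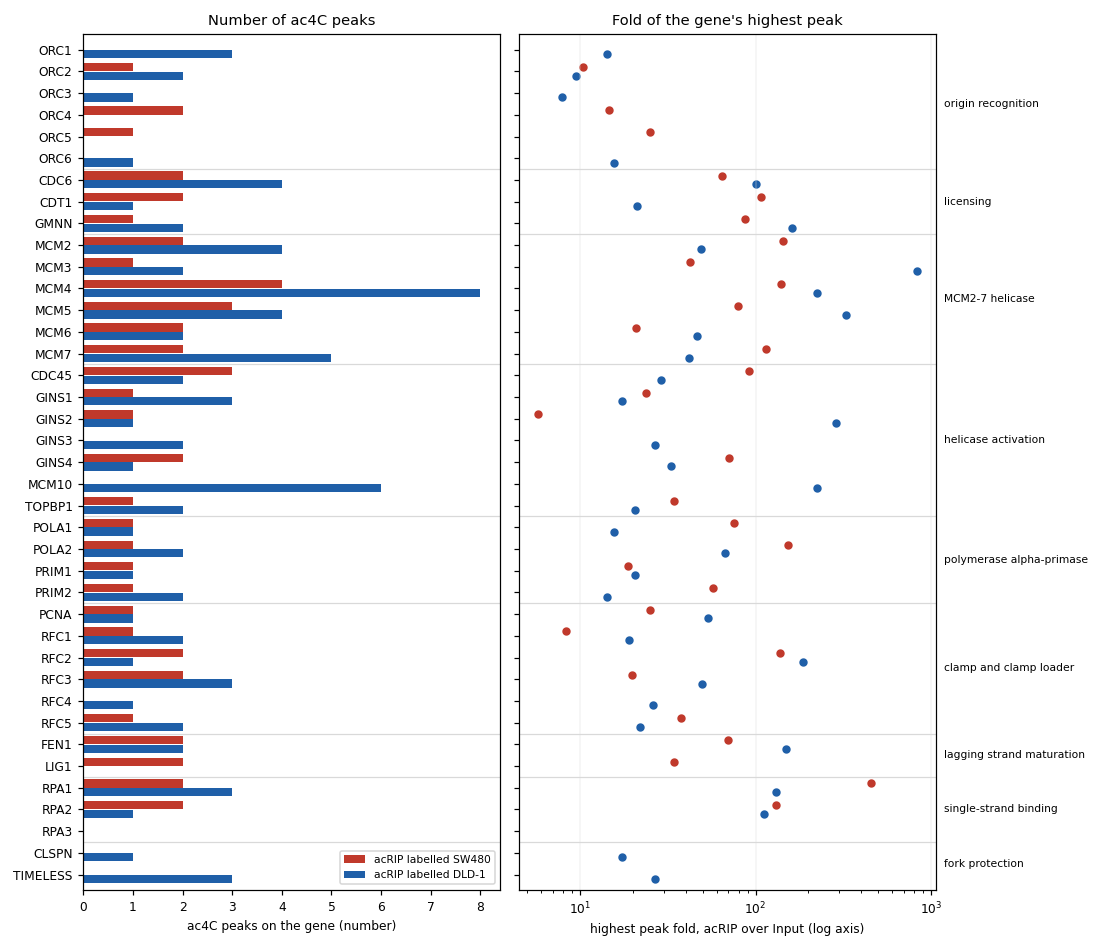
Number of ac4C peaks listed on each of the 39 genes (left, bars) and the fold of acRIP over Input of the gene's highest peak (right, log axis), red for the SW480 list and blue for DLD-1. MCM4 had the most peaks in both lists, 4 and 8 (with CDC45 and MCM5 next in SW480, at 3), MCM3 in DLD-1 had the highest fold (829), and RPA3 has no bar.

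Fold, the authors' enrichment of acRIP over Input within a peak, had a median of 27.2 over the peaks of the 39 genes in SW480 and 24 in DLD-1, beside 19.8 and 14.7 over all peaks on protein-coding hosts. The highest belonged to MCM3, RPA1, MCM5, GINS2 and MCM10, and positions are given on GRCh38. MCM3, on the minus strand, held a peak of 10 exon blocks and 1796 bases in DLD-1 with a fold of 829 (chromosome 6, 52264039 to 52276024), and a second of 9 blocks with a fold of 254. In SW480 its single peak lay within the first of these, from 52264039 to 52265384, with a fold of 42.2.

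RPA1, on the plus strand, had its highest fold in SW480, 454, over bases 1897247 to 1897575 of chromosome 17 (3′-UTR). The DLD-1 peak there started at the same base and ran to 1897933, with a fold of 131. MCM5 carried a peak on the plus strand of chromosome 22 at 35424142 to 35424382 with a fold of 79.9 in SW480. In DLD-1 it spanned 35424112 to 35424472, with a fold of 326. The authors placed all MCM5 peaks in the class exon, and none in CDS or UTR. GINS2, on the minus strand, had 1 peak in each list, both with 85677994 of chromosome 16 as the lower bound, and the fold was 5.73 in SW480 but 286 in DLD-1. MCM10 had 6 peaks in DLD-1, the highest with a fold of 224, and 0 in SW480. The order of the folds in the lists thus differed between genes, with RPA1 higher in SW480 and MCM3, MCM5 and GINS2 in DLD-1. Fold is set over Input, and the Inputs labelled SW480 and DLD-1 had the reverse order in these genes. They stood at 43.6 and 22.1 FPKM for MCM3, 15.5 and 4.04 for MCM5, 2.92 and 1.86 for GINS2, and 20.4 and 24.03 for RPA1. CDC45 did not, with top folds of 91.6 and 29.1 and Inputs of 14.5 and 2.37 FPKM. Neither did CDT1, GINS1, GINS4, MCM2, POLA1, POLA2, PRIM2, RFC5 and TOPBP1, whose top folds and Inputs were both higher under SW480. The other genes with peaks in both lists had the reverse order. The part of Input levels in the folds was not tested.

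Peaks of both lists overlapped by at least 1 base on 22 of the 39 genes, although on ORC2 and PRIM2 the only overlap was of 1 base. The share of all genes with overlapping peaks was not counted. Of the 50 peaks in SW480, 36 (72.0%, 58.3 to 82.5) overlapped a peak in DLD-1, beside 56.0% of all peaks on protein-coding hosts. Of the 82 peaks in DLD-1, 30 (36.6%, 27.0 to 47.4) overlapped 1 in SW480, beside 36.2%. The overlapping peaks with the highest smaller fold lay in MCM4 (139 and 223), RFC2 (137 and 187), RPA1 (454 and 131), RPA2 (131 and 112) and GMNN (87.4 and 162, in SW480 and DLD-1). RFC2, a subunit of the clamp loader, carried it in its 3′-UTR, over bases 74231678 to 74233804 of chromosome 7 (minus strand) in SW480. That of GMNN lay in CDS on chromosome 6, from 24784449 to 24785920 (plus strand), and that of RPA2 in its 3′-UTR, over bases 27891554 to 27891999 of chromosome 1 (minus strand). GINS1, POLA1, RFC1, RFC5 and TOPBP1 had peaks in both lists that did not overlap.

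The lists also count sites of the 12-base pattern that the authors searched, with 4 Cs each followed by 2 bases. At least 1 site was listed in 54.0% of the 50 peaks in SW480 and 54.9% of the 82 in DLD-1, beside 56.2% and 54.8% of all peaks on protein-coding hosts. Per kilobase of peak there were 3.69 and 3.65 sites, beside 5.11 and 4.60. MCM2 and MCM5 held the most sites in DLD-1, 18 and 16, and the 454-fold peak of RPA1 in SW480 held 2.

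Both assays were last set side by side. In libraries labelled SW480, 3 of the 5 genes called higher in RIP had a peak in SW480 (ORC3 and RPA3 had none), as did 7 of the 11 called lower (CLSPN, MCM10, ORC1 and ORC6 had none) and 20 of the 23 within 2-fold. In those labelled DLD-1, 11 of the 11 called higher had a peak, as did 24 of the 28 within 2-fold. Among all 39 genes, called or not, 30 (76.9%) had a peak in SW480 and 35 (89.7%) in DLD-1. How many of all called genes carried a peak was not counted, so no link between the assays is read from these counts. PRIM1 was called higher in RIP in all 4 pairings with the first table's Inputs, but in none with the scaled Inputs of the second table. It had 1 peak in each list, at folds of 18.7 and 20.5, and these overlapped by 120 bases. ORC5, the other gene called in both RIP libraries over the crossed Input, had 1 peak with a fold of 25 in SW480 and 0 in DLD-1. RPA3 was called in 2 of the 4 pairings and had no peak in either list or in the list from pooled libraries, which covered the other 38 genes.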

How the data were processed

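The 39 genes, their roles, the other replication genes and the tests were chosen with earlier results of these data known. Per the labels, RNA was precipitated with kits for RIP and ac4C, and libraries were made and processed by a sequencing provider. Groups came from the sample titles. The submitters' processing notes name cutadapt 2.5 and HISAT2 2.1.0 and the builds GRCh38 and GRCm38, without roles; counting tool, strand setting and peak caller are not given in the sources used here. The study names IgG as the RIP control, the tables Input.

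The authors deposited FPKM values for RIP and Input, and Input values of a second table, read here as FPKM. Columns with the authors' ratios of RIP to Input were not used. The authors' peak lists give a p-value and a fold ratio of acRIP over Input per peak (deposited), a count of motif sites, a region class and blocks on GRCh38. Peak starts met RefSeq gene starts at an offset of -1 in 21 cases and of 0 in 1, so starts were moved by 1 base. Peak sequences need a genome and are not shown.

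Ratios were log2((RIP FPKM + 1)/(Input FPKM + 1)) over the genes whose Inputs both reached 1 FPKM, a scale that understates changes of low genes. Genes of like Input are protein-coding genes with an Input between the lowest and highest of the 39. Whole reads were solved from the ratios between FPKM columns for 23513 of 23515 genes (tolerance 0.002). They are the smallest that give the values, so the counting errors are upper limits for the counting of reads alone. PCR copies are not independent molecules, and variation between libraries is not covered. The read solving was tested on simulated data. For the second table and the acRIP libraries depth is unknown. Overlap of peaks was read block by block on the same strand. All genes with a 2-fold call in a labelled pair and the 5 with the highest peak fold are given in every RIP and Input library. Alternatives were a pseudocount of 0.1, no filter, centring, the Input of the opposite label or of the second table, and stricter peaks or overlaps. For RIP ratios, each Input of the second table was first scaled. Its median over the genes tested was set to that of the first table's Input of the same label. Scripts used Python 3.11.15, pandas 2.3.3, numpy 2.4.6, scipy 1.17.1 and matplotlib 3.10.9.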

Additional observations from a re-analysis of the deposited data

Results flagged for a closer look

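For 13 of the 39 genes, RIP lay on opposite sides of Input with the labels SW480 and DLD-1, with a 2-fold call in at least 1 pair. The difference of the log2 ratios, SW480 minus DLD-1, was -3.68 for CLSPN, -3.11 for CDC45, -2.95 for ORC1, -2.84 for LIG1, -2.77 for MCM10, -2.74 for MCM5, -2.18 for ORC6, -2.07 for CDT1, -1.98 for TOPBP1, -1.89 for GINS4, -1.73 for MCM3 and -1.53 for MCM2. It was 1.78 for RPA3, the only gene of the 13 with RIP above Input under the label SW480. None of these differences was tested, since each group has 1 library. Over the crossed Inputs all 13 differences were smaller, between -0.72 (RPA3) and 1.30 (CDC45), and of the 13 genes CDC45 alone still had opposite signs beyond counting error. The 13 genes were picked for opposite signs in the labelled pairs. Their smaller crossed differences follow in part from that choice and are no separate support for a pairing. The part of the labels in these signs was not tested.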

How the results depend on the processing

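No paired analysis was possible because each group held 1 library. Shares in brackets are those of all genes tested in the same setting, and the second table's Inputs were scaled in RIP ratios as described above. In libraries labelled SW480, the 5 genes called higher (15.6%) became 2 over the crossed Input (9.24%). They became 3 over the Input of the second table (18.4%) and 2 over its crossed Input (11.8%). The 11 called lower (16.0%) became 0 over the crossed Input (11.7%) and 2 over the second table's crossed Input (10.2%). The median of -0.090 became -0.27 after centring, 0.29 over the crossed Input, -0.43 over the second table and 0.18 over its crossed Input. In libraries labelled DLD-1, the 11 called higher (15.1%) became 4 over the crossed Input (9.36%) and 2 over the second table's crossed Input (12.1%). The 0 called lower (19.2%) became 1 over the second table's crossed Input (10.3%). The median of 0.66 became 0.019 over the crossed Input and 0.077 over the second table's crossed Input. The alternatives that use the second table's crossed Inputs were added after the data had been seen. Of the 27 calls of single genes, 27 held with a pseudocount of 0.1 and without a filter, 26 after centring, 18 over the second table with the same label and 4 over the crossed Input. Signs turned, with the labels SW480, over the crossed Input for CDC45 (0.71), MCM5 (0.69) and MCM10 (0.43), and over the second table's for CDC45 (0.71), MCM5 (1.37), MCM10 (0.33) and MCM2 (0.051). With the labels DLD-1 they turned for CDC45 (-0.58), CLSPN (-0.87) and MCM10 (-0.018), and over the second table's for CLSPN (-1.44), MCM10 (-0.34) and TOPBP1 (-0.072). The 2 genes lower in the Input labelled SW480 (9.29%) became 1 after centring (8.72%) and 0 in the second table (9.60%). With peaks under the median p-value, the genes with a peak became 20 in SW480, 22 in DLD-1 and 16 in both lines. Those with overlapping peaks became 14, and 8 among all peaks when 50% of each peak had to overlap. Shares of all genes were not counted for stricter peaks or overlaps. The cause of these changes was not tested, except that stricter peaks and overlaps leave fewer by construction. Genes with few Input reads, such as CDC45 and GINS2 at 67, have the widest counting errors.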
